A study of Mus musculus with 6 samples.

Results

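The genes of the proteasome, the protease complex that degrades ubiquitin-tagged proteins, were examined in the liver of mice with an inactive TRIM24 E3-ligase. All genes named *Psma*, *Psmb*, *Psmc*, *Psmd* or *Psme* with a number were taken, which gave 43 of the 21528 genes listed in the RNA-Seq tables. Of 44 genes of GENCODE M21 that carry such a name, 43 were therefore covered, and *Psmb11* was not analysed here. There were 3 libraries from livers of wild-type (WT) mice and 3 from livers of TRIM24 C52/55A mice. The labels number them as replicates, and 1 mouse per library was assumed. In the TRIM24 C52/55A mice, 2 cysteines of the RING domain encoded by the endogenous *Trim24* gene were replaced by alanine through CRISPR/Cas9, so the mutation was present in all cells of the body and not only in hepatocytes. Mice of both genotypes were labelled C57BL/6 (the knockin was made in C57Bl/6J), were bred as littermates from heterozygous parents, were 5 months old and had been on a high-fat diet (HFD, 60% fat) for 3 months. Livers of chow-fed mice were not analysed here, and each difference below is therefore one between genotypes under the HFD.

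The 26S proteasome is a barrel-shaped core particle capped by regulatory particles. The core is built from rings of alpha subunits, which gate the entrance, and rings of beta subunits, 3 of which (the products of *Psmb5*, *Psmb6* and *Psmb7*) hold the active sites. The regulatory particle has a base, whose ATPases (*Psmc* genes) unfold substrates, and a lid, which removes ubiquitin. In cells exposed to interferon, and constantly in many immune cells, the products of *Psmb8*, *Psmb9* and *Psmb10* take the place of those of *Psmb5*, *Psmb6* and *Psmb7*, and the PA28 activator (*Psme1* and *Psme2*) can cap the core. Such immunoproteasomes favour peptides that MHC class I molecules present. The transcription factor NRF1 (*Nfe2l1*), itself controlled by proteasome activity, raises the constitutive subunit genes together when degradation falls short.

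The values are FPKM, which divide a gene's fragments by transcript length and by the library's fragments, so levels can be set side by side between genes. The spacing of low values implied 15700000 to 17000000 fragments per library. Differences were tested with limma on log2(FPKM + 1) in 12225 genes, those averaging 0.5 FPKM or more, and a gene is said to have fallen or risen only where its p-value adjusted over all of these genes was under 0.05. FPKM summed to 644619 to 648221 in the WT and 673244 to 676791 in the TRIM24 C52/55A libraries, and the median log2 fold change of all genes tested was -0.08. *Trim24* itself was at 5.54, 4.85 and 5.96 FPKM in the WT and at 6.15, 4.31 and 8.46 FPKM in the TRIM24 C52/55A livers, which does not check the genotype because the mutation changes codons and not the level. The hepatocyte markers *Apoa1*, *Ttr*, *Apob*, *Cps1*, *Asgr1* and *Hnf4a* were present in all libraries (summed FPKM 12979 to 13589 in WT, 12712 to 14747 in TRIM24 C52/55A), while *Alb* was not analysed here. TRIM24 C52/55A replicate 2 stood apart in holding the adipocyte genes *Adipoq*, *Plin1*, *Lep* and *Retn* at 4.55, 3.32, 3.98 and 1.59 FPKM, whereas each was at 0.127 FPKM or less in the other 5 libraries. *Cfd*, the fifth adipocyte marker measured, did not follow them, at 4.17, 8.62 and 3.1 FPKM in WT and 0.112, 2.54 and 0.821 FPKM in TRIM24 C52/55A (log2 fold change -1.61, adjusted p = 0.0617). Because the tissue is a mixture, fewer cells of a type cannot be told apart from less RNA per cell in any result below.

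Lower FPKM of proteasome genes was found nearly throughout the TRIM24 C52/55A liver, by a small amount in the 26S subunits and by more in 2 inducible subunits. Of the 43 genes, 42 passed the filter on low values, 40 of them were lower by sign (95.2%, against 65.5% of all genes tested), and 5 fell: *Psmb8*, *Psmb9*, *Psmd4*, *Psmd12* and *Psmd7*. In limma 0 members rose, also at an unadjusted p under 0.05, at which 29 were lower, and 0 rose under each of 15 alternative settings. In either direction, 2883 of the 12225 genes tested had an unadjusted p under 0.05. So had 572 of the 1318 genes in the FPKM range of the core and regulatory particle genes. Among all genes tested, 6.09% fell and 1.64% rose, against 11.9% and none of the members tested. In 33 of the 42 members each TRIM24 C52/55A liver lay below each WT liver (78.6%), against 22.5% of all genes tested. Among genes in the FPKM range of the core and regulatory particle genes, 13.4% fell, 43.3% were lower without overlap and 78.5% were lower by sign. The share of members that fell was therefore not above that of genes in this range. The median log2 fold change of the members tested was -0.21. Without TRIM24 C52/55A replicate 2, 12 members fell, and without any other single library between 1 and 2. Of all genes tested, 8.52% fell without TRIM24 C52/55A replicate 2.

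**Figure D1:**
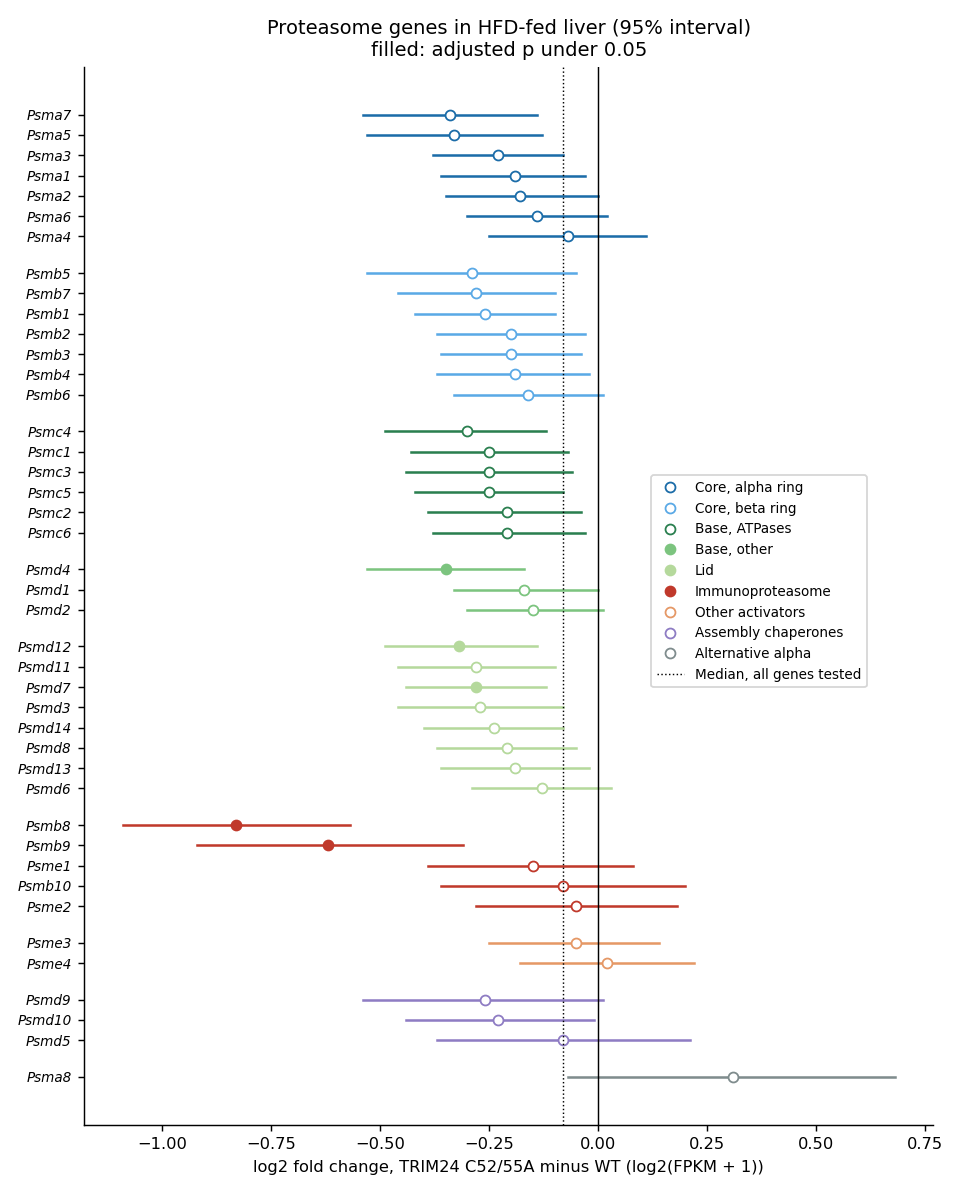
Log2 fold change (TRIM24 C52/55A minus WT, on the log2(FPKM + 1) scale, x axis) of the 42 proteasome genes tested, with 95% confidence intervals from limma, grouped by class and sorted within each class. Filled circles mark the 5 genes that fell; all 31 core and regulatory particle genes lie left of 0, *Psmb8* and *Psmb9* lie furthest left, and the dotted line is the median of all genes tested (-0.08).

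The constitutive core particle genes were lower by sign and by unequal amounts, from -4.89% (*Psma4*) to -21.1% (*Psma7*), and none passed the test. The 14 genes were highly expressed in the WT liver, from 46 FPKM for *Psma5* to 118 FPKM for *Psmb7*, a 2.57-fold range. Their summed FPKM was 1261, 1265 and 1354 in the WT livers and 1091, 1157 and 1093 in the TRIM24 C52/55A livers, a difference of -13.9%, and the groups did not overlap. All 14 genes were lower by sign (median log2 fold change -0.20, range -0.34 to -0.07), and 11 had an unadjusted p under 0.05. Of all 12225 genes tested, 65.5% were lower by sign and 2883 had such a p in either direction. For the 1318 genes in the FPKM range of the core and regulatory particle genes, these values were 78.5% and 572. Under quantile normalization *Psma4* and *Psma6* changed sign, and under median-of-ratios scaling *Psma4* did.

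Within the alpha ring, *Psma7* showed the largest difference. It was at 79.4, 77.3 and 85 FPKM in the WT livers and at 58.2, 69.7 and 62.7 FPKM in the TRIM24 C52/55A livers. The groups did not overlap, and the log2 fold change was -0.34 (SE 0.09, adjusted p = 0.0533). *Psma5*, the lowest of the ring, was at 46.1, 45.6 and 46.2 FPKM in WT and at 36, 40.4 and 33 FPKM in TRIM24 C52/55A, with closely placed WT livers and more scatter among the mutants (log2 fold change -0.33, adjusted p = 0.0604). *Psma3*, the highest of the ring, went from 113 ± 0.691 to 96.7 ± 2.08 FPKM (SD, n = 3 each), and its log2 fold change was -0.23 (adjusted p = 0.0762). *Psma4* was the 1 core gene whose groups overlapped, at 89.5, 96.5 and 103 FPKM in WT and 92.7, 91.3 and 91.2 FPKM in TRIM24 C52/55A.

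Within the beta ring, the log2 fold changes of the 3 catalytic subunit genes reached to both sides of those of the other 4. *Psmb5*, which encodes the chymotrypsin-like subunit, was at 97.9, 89.7 and 107 FPKM in WT and at 80, 89 and 70.9 FPKM in TRIM24 C52/55A, so that the lowest WT and the highest mutant liver nearly met (log2 fold change -0.29, SE 0.10, adjusted p = 0.134). *Psmb7*, which encodes the trypsin-like subunit, was at 110.3, 115 and 128 FPKM in WT and at 95.4, 98.2 and 96.4 FPKM in TRIM24 C52/55A, without overlap (log2 fold change -0.28, SE 0.08, adjusted p = 0.0707). *Psmb6*, which encodes the caspase-like subunit, had the smallest difference of the ring. Its FPKM was 112, 114 and 124 in WT and 104, 107 and 102 in TRIM24 C52/55A (log2 fold change -0.16, SE 0.07, adjusted p = 0.233). The other 4 beta genes, which encode subunits without active sites, had log2 fold changes between -0.26 and -0.19, and *Psmb2* was the lowest of the ring at 73.6 FPKM in WT.

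The regulatory particle was lower by a slightly larger median and included 3 of the 5 genes that fell. The 3 are 17.6% of its genes, against 6.09% of all genes tested and 13.4% of those in the FPKM range of the core and regulatory particle genes. Its 17 genes ranged in the WT liver from 31.1 FPKM (*Psmd13*) to 72.9 FPKM (*Psmc1*), a 2.34-fold range. Their summed FPKM was 893, 863 and 913 in WT and 735, 776 and 742 in TRIM24 C52/55A, a difference of -15.6%. All 17 were lower by sign without overlap between the groups, against 22.5% of all genes tested and 43.3% of those in that FPKM range. The median log2 fold change was -0.25 (range -0.35 to -0.13), and 15 had an unadjusted p under 0.05. In either direction, so did 572 of the 1318 genes in that FPKM range and 2883 of all 12225 genes tested. Quantile normalization turned the sign of *Psmd2* and *Psmd6*.

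*Psmd4*, on chromosome 3 (95032694 to 95042614, minus strand; here and below in GENCODE M21 on GRCm38), encodes the base subunit that binds ubiquitin chains, and had the largest difference of the particle. It was at 71.9, 68.1 and 71.3 FPKM in WT and at 51.6, 59.2 and 54.2 FPKM in TRIM24 C52/55A. The groups did not overlap, and the gene fell by 0.35 on the log2 scale (SE 0.08, adjusted p = 0.0328). An adjusted p under 0.05 held in 4 of 15 alternatives, with a range of 0.0156 to 0.165. The remaining base scaffold genes *Psmd1* and *Psmd2* had log2 fold changes of -0.17 and -0.15 and did not pass (adjusted p = 0.206 and 0.237).

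*Psmd12* and *Psmd7*, both of the lid, also fell. *Psmd12*, a scaffold subunit of the lid on chromosome 11 (107479484 to 107504362, plus strand), was at 38.6, 35.9 and 38.5 FPKM in WT and at 28.9, 31.6 and 29.5 FPKM in TRIM24 C52/55A (log2 fold change -0.32, SE 0.08, adjusted p = 0.0417). *Psmd7*, which lies on chromosome 8 (107580381 to 107588464, minus strand) and encodes the partner of the deubiquitinase subunit, was at 46.4, 47.6 and 48.8 FPKM in WT and at 38, 40 and 38.9 FPKM in TRIM24 C52/55A (log2 fold change -0.28, SE 0.07, adjusted p = 0.0465). Neither pair of groups overlapped, and for both genes an adjusted p under 0.05 held in 4 of 15 alternatives (up to 0.191 for *Psmd12* and 0.324 for *Psmd7*). *Psmd14*, which encodes the deubiquitinase itself, had a log2 fold change of -0.24 (adjusted p = 0.0835) and is named here after its value was seen. At the other end of the lid, *Psmd6* was at 51.5, 52.6 and 50.8 FPKM in WT and at 45.5, 48.4 and 47.3 FPKM in TRIM24 C52/55A (log2 fold change -0.13, adjusted p = 0.3). *Psmd8*, the highest of the lid, and *Psmd13*, the lowest, had log2 fold changes of -0.21 and -0.19.

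The 6 ATPase genes of the base were closely alike by value, with log2 fold changes between -0.30 (*Psmc4*) and -0.21 (*Psmc2* and *Psmc6*). *Psmc4* was at 49.6, 51.8 and 56.7 FPKM in WT and at 40.5, 44.5 and 42.6 FPKM in TRIM24 C52/55A, without overlap (SE 0.08, adjusted p = 0.0606). *Psmc1*, the highest ATPase gene, went from 72.9 ± 2.07 to 61.2 ± 4.09 FPKM, and *Psmc2*, the lowest, from 44.3 ± 1.98 to 38.1 ± 1.85 FPKM (SD, n = 3 each). None of the 6 passed the test, and all 6 had an unadjusted p under 0.05. Such a p, in either direction, was found for 2883 of all 12225 genes tested. Of the 1318 genes in the FPKM range of the core and regulatory particle genes, 572 had one.

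When each of the 31 core and regulatory particle genes was set to 100% at its WT mean, the 3 mutant livers had lower medians than the 3 WT livers. The medians over the 31 genes were 99.8, 97.4 and 103% in WT replicates 1 to 3, and 83.8, 88 and 83.7% in TRIM24 C52/55A replicates 1 to 3. In each of the 3 mutant livers all 31 genes were under 100%, with 96.1% (*Psma4*) as the highest value. TRIM24 C52/55A replicate 2, the library with the adipocyte genes, was the highest of its group in 23 of the 31 genes. The spread between livers of a genotype was small. The median SD between replicates was 0.062 on the log2 scale for the 31 genes, 0.136 for all genes tested and 0.112 for the 1318 genes whose mean lay in the same range (29.1 to 110.3 FPKM), a range chosen after the values were seen. Among those 1318 genes, 78.5% were lower by sign, 43.3% were lower without overlap, 13.4% fell and the median log2 fold change was -0.15. The corresponding values for the 31 genes were 100%, 96.8%, 9.68% and -0.23. Genes of one complex are not independent of each other, and no test was made on these shares.

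**Figure D2:**
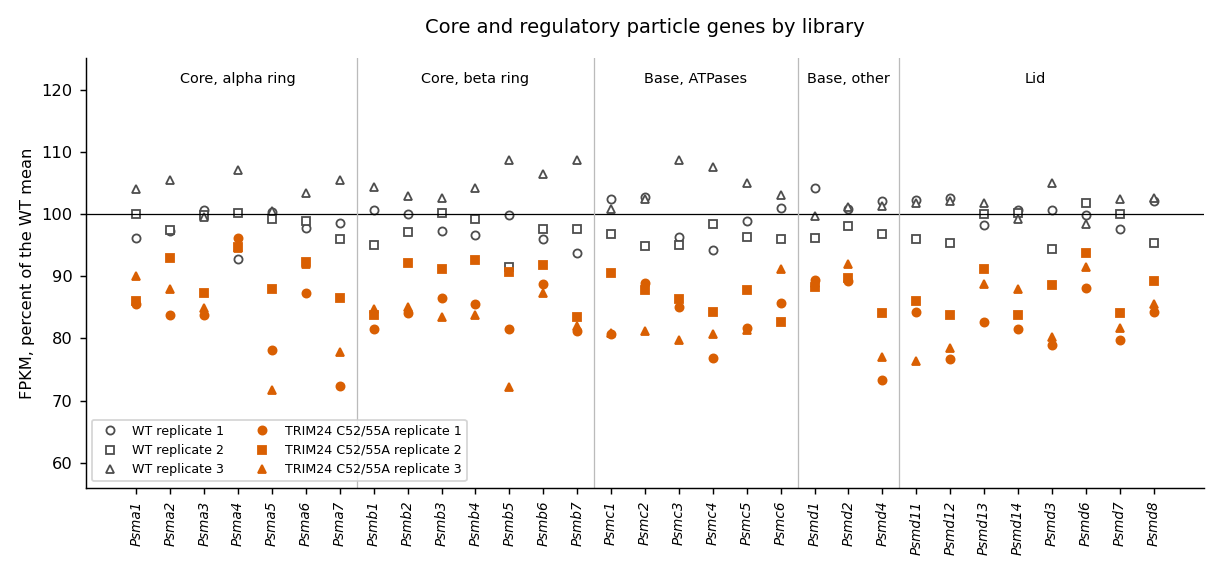
FPKM of the 31 core and regulatory particle genes in each library as a percentage of the gene's WT mean (y axis, which does not start at 0), by subcomplex. Open grey symbols are the WT and filled orange symbols the TRIM24 C52/55A livers. The orange symbols lie under 100% throughout, between 71.7% and 96.1%, and reach up among the grey ones in *Psma4* only.

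The size of this difference depended on how the libraries were scaled to each other. With FPKM as deposited, the median of the 31 genes lay 0.15 (log2) under that of all genes tested. When values were rescaled to a fixed sum (TPM), all genes shifted to a median of -0.13, the 31 genes to -0.29, and 18 members fell. Median-of-ratios scaling put all genes at 0.007 and the 31 genes at -0.12, with 30 of 31 lower by sign, and quantile normalization put all genes at 0.01 and the 31 genes at -0.06, with 27 of 31 lower. Under the last 2 scalings only *Psmb8* fell among the members. Relative to all genes, the 31 genes were therefore lower by 0.07 to 0.16 under these 4 scalings. The 1318 genes in their FPKM range had a median of -0.15 with FPKM as deposited, and were not compared under the other scalings.

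**Figure D3:**
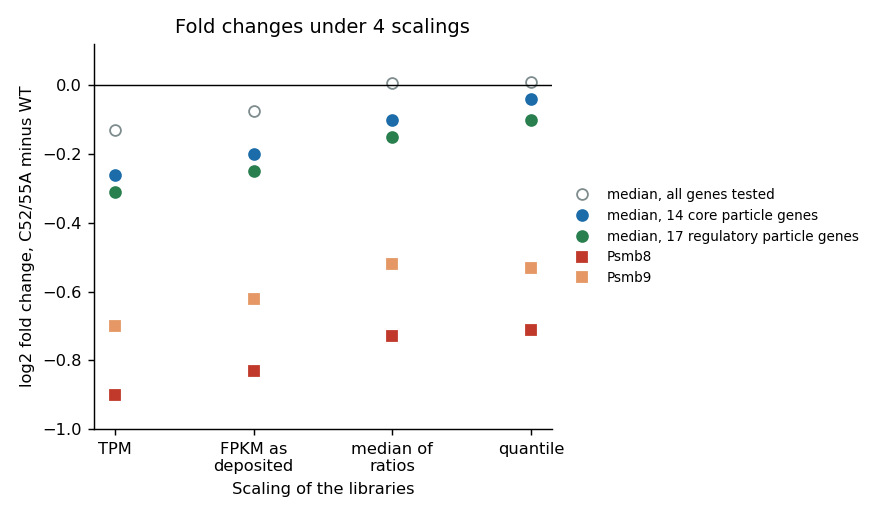
Log2 fold change (TRIM24 C52/55A minus WT, y axis) under 4 scalings of the libraries (x axis). Circles are medians over all genes tested (open) and over the 14 core and 17 regulatory particle genes (filled), and squares are *Psmb8* and *Psmb9*. The core and regulatory particle medians approach 0 under quantile normalization (-0.04 and -0.10), whereas *Psmb8* stays at -0.71 or lower.

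The immunoproteasome genes did not move as a group. *Psmb8* and *Psmb9* fell by more than any other member, whereas *Psmb10*, *Psme1* and *Psme2* overlapped between the genotypes. The median log2 fold change of the 5 genes was -0.15. It was -0.06 without TRIM24 C52/55A replicate 1, -0.24 without TRIM24 C52/55A replicate 2, -0.05 under median-of-ratios scaling and 0.01 under quantile normalization.

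*Psmb8*, which encodes the inducible chymotrypsin-like subunit, lies in the MHC region of chromosome 17 (34197721 to 34201454, plus strand). It was at 22, 24.7 and 25.2 FPKM in the WT livers and at 13, 15.1 and 11.4 FPKM in the TRIM24 C52/55A livers. Each mutant liver was far below each WT liver, and the mean fell by 45.2%, from 24 ± 1.75 to 13.1 ± 1.85 FPKM (SD, n = 3 each). The log2 fold change was -0.83 (SE 0.11, 95% confidence interval -1.09 to -0.57, adjusted p = 0.00623). It ranged from -0.92 to -0.71 over 15 alternative settings, with an adjusted p under 0.05 in 14 of them, the exception being a linear model without moderation (adjusted p = 0.0947).

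*Psmb9*, which encodes the inducible subunit that replaces the caspase-like one, is its neighbour on chromosome 17 (34181987 to 34187764, minus strand). It was at 9.78, 10.6 and 9.97 FPKM in WT and at 5.14, 6.14 and 7.72 FPKM in TRIM24 C52/55A. The groups did not overlap, although the mutant livers were more scattered than the WT livers. The log2 fold change was -0.62 (SE 0.13, 95% confidence interval -0.92 to -0.31, adjusted p = 0.0288), and an adjusted p under 0.05 held in 6 of 15 alternatives, with a range of 0.00988 to 0.151. The deposited interval of *Psmb9* is 15.2 kb long and shared with *Tap1*, against 5.8 kb in the annotation, and exons of both genes overlap on opposite strands. Whether the counting used strand is not given in the sources used here, so fragments of *Psmb9* and *Tap1* cannot be told apart there. *Psmb8* likewise shares its deposited interval of 18.6 kb with *Tap2* and *Gm15821*, against 3.7 kb in the annotation. In all, 11 members had a deposited interval over 1.5 times the annotated gene, among them *Psmb10* (31.8 kb against 2.7 kb), *Psmb7* and *Psme1*. Exons of *Psma4*, *Psmb7*, *Psmc3*, *Psmd13* and *Psme1* also overlap those of another expressed gene on the opposite strand, with the same limit.

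The remaining 3 genes did not pass the test. *Psmb10*, which encodes the inducible trypsin-like subunit on chromosome 8 (105935735 to 105938444, minus strand), was at 18.5, 16.3 and 19.2 FPKM in WT and at 14.5, 19.9 and 16.7 FPKM in TRIM24 C52/55A. The mutant livers held both the lowest and the highest value (log2 fold change -0.08, 95% confidence interval -0.36 to 0.20, adjusted p = 0.741). *Psme1* and *Psme2*, which encode the subunits of PA28 and lie near each other on chromosome 14 (55578123 to 55581529, plus strand, and 55587441 to 55591113, minus strand), were the most abundant of the 5. *Psme1* was at 58, 57.3 and 63.1 FPKM in WT and at 46.7, 60.5 and 53.6 FPKM in TRIM24 C52/55A (log2 fold change -0.15, 95% confidence interval -0.39 to 0.08, adjusted p = 0.426). *Psme2* was at 56.9, 51.3 and 64.3 FPKM in WT and at 55.3, 59.5 and 51.3 FPKM in TRIM24 C52/55A (log2 fold change -0.05, 95% confidence interval -0.28 to 0.18, adjusted p = 0.818). The sign of these 3 genes changed under quantile normalization, to 0.04, 0.01 and 0.10.

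**Figure D4:**
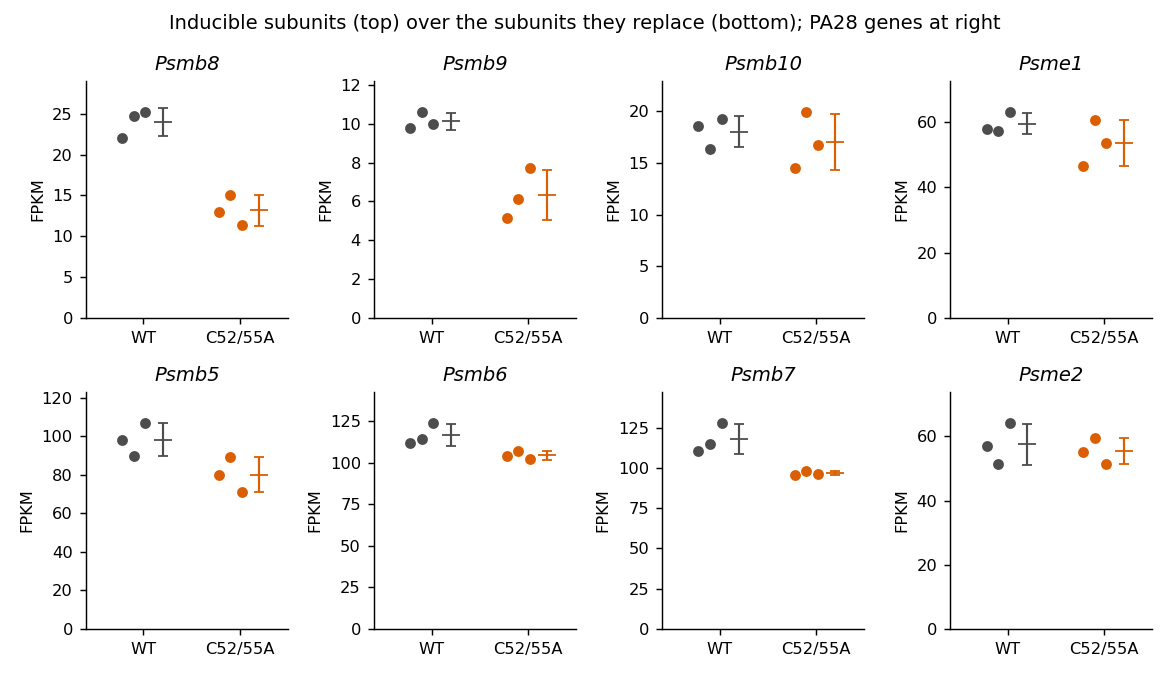
FPKM (y axes, from 0) of the inducible subunit genes *Psmb8*, *Psmb9* and *Psmb10* over the constitutive genes *Psmb5*, *Psmb6* and *Psmb7* they replace, and of the PA28 genes *Psme1* and *Psme2* at the right, in 3 WT and 3 TRIM24 C52/55A livers. Points are livers and bars the mean ± SD; the groups lie apart in *Psmb8* (22 to 25.2 against 11.4 to 15.1 FPKM) and *Psmb9*, and overlap in *Psmb10*, *Psme1* and *Psme2*.

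The balance of inducible to constitutive catalytic subunits was compared within each liver, where a single scaling factor for a library cancels apart from the pseudocount, while quantile normalization does not. *Psmb8* made up 18.3, 21.6 and 19.1% of the FPKM of *Psmb8* and *Psmb5* together in WT, and 13.9, 14.5 and 13.8% in TRIM24 C52/55A. The log2 ratio differed by -0.53 without overlap (two-sided exact permutation p = 0.10, and 3 livers against 3 allow no smaller one). *Psmb9* made up 8.03, 8.55 and 7.44% of *Psmb9* and *Psmb6* in WT and 4.73, 5.43 and 7.05% in TRIM24 C52/55A, a difference in log2 ratio of -0.45, again without overlap (exact permutation test, p = 0.10). *Psmb10* made up 14.4, 12.4 and 13% of *Psmb10* and *Psmb7* in WT and 13.2, 16.8 and 14.8% in TRIM24 C52/55A, where the groups overlapped and the difference was 0.20 (exact permutation test, p = 0.20). Quantile normalization gave differences of -0.58, -0.52 and 0.16 for the 3 pairs. The p-values of these 3 comparisons are not adjusted, and no adjustment could bring them under 0.05.

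The other activators and the minor members did not pass the test. *Psme3*, which encodes the nuclear activator PA28-gamma, was at 28.6, 32.2 and 30.3 FPKM in WT and at 28.2, 31.6 and 27.8 FPKM in TRIM24 C52/55A (log2 fold change -0.05, 95% confidence interval -0.25 to 0.14). *Psme4*, which encodes the activator PA200, was at 13.5, 14 and 14.7 FPKM in WT and at 14.5, 13.1 and 15.3 FPKM in TRIM24 C52/55A (log2 fold change 0.02, 95% confidence interval -0.18 to 0.22). *Psme2b*, a copy of *Psme2* on chromosome 11, was the 1 member under the filter on low values, at 0.14, 0.465 and 0.212 FPKM in WT and 0.139, 0.144 and 0.0724 FPKM in TRIM24 C52/55A. *Psma8*, which encodes the alpha subunit of the testis proteasome, was close to the filter at 0.151, 0.369 and 0.707 FPKM in WT and 0.949, 0.567 and 0.67 FPKM in TRIM24 C52/55A. It had the largest positive log2 fold change of the members, 0.31, with overlapping groups (adjusted p = 0.309).

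The chaperones of regulatory particle assembly among the members, *Psmd5*, *Psmd9* and *Psmd10*, were less abundant than the subunits, at 12.3, 17.4 and 7.85 FPKM in WT, and none passed the test. *Psmd10*, which encodes gankyrin, was at 8.13, 8.24 and 7.17 FPKM in WT and at 6.82, 6.67 and 6.14 FPKM in TRIM24 C52/55A, without overlap (log2 fold change -0.23, adjusted p = 0.185). *Psmd9* had the largest difference of the 3, with overlap (log2 fold change -0.26, adjusted p = 0.232), and *Psmd5* the smallest (-0.08, adjusted p = 0.752).

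Among 5 further assembly factors of the core, *Pomp* fell (20%, against 6.09% of all genes tested). *Pomp*, the maturation factor of the core particle, was at 82.3, 89.3 and 83.7 FPKM in WT and at 56.2, 67 and 57 FPKM in TRIM24 C52/55A, and its mean fell by 29.4% without overlap (log2 fold change -0.50, SE 0.09, adjusted p = 0.0160). Its difference was larger than that of each constitutive subunit gene by value. An adjusted p under 0.05 held in 9 of 15 alternatives, with a range of 0.00732 to 0.106. The pairing factors *Psmg1*, *Psmg2*, *Psmg3* and *Psmg4* had log2 fold changes of 0.01, -0.10, -0.23 and -0.38, and none of them passed. Of 16 genes for proteasome-associated proteins, such as ubiquitin receptors and deubiquitinases, 15 were lower by sign and 0 passed in limma, with 4 at an unadjusted p under 0.05. Of all 12225 genes tested, 65.5% were lower by sign and 2883 had such a p in either direction. The smallest adjusted p of the 16 belonged to *Adrm1*, a ubiquitin receptor of the base, at 42.8, 46.8 and 48.1 FPKM in WT and 34.6, 40.1 and 34.4 FPKM in TRIM24 C52/55A (log2 fold change -0.33, adjusted p = 0.0647).

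Of 11 genes for regulators of proteasome gene expression, *Nfe2l1* and *Mafk* fell (18.2%, against 6.09% of all genes tested). By sign 9 were lower (81.8%, against 65.5% of all genes tested) and 2 higher. The 2 were *Ddi2* (log2 fold change 0.09, adjusted p = 0.617) and *Syvn1* (0.30, adjusted p = 0.608), named here for their direction. *Nfe2l1* was at 43.2, 46 and 52.6 FPKM in WT and at 36.8, 31.2 and 34.4 FPKM in TRIM24 C52/55A, without overlap (log2 fold change -0.46, SE 0.10, adjusted p = 0.0311). *Mafk*, which encodes a small MAF protein that pairs with NRF1 and NRF2 on DNA, was at 8.84, 8.74 and 7.13 FPKM in WT and at 4.64, 5.95 and 5.86 FPKM in TRIM24 C52/55A (log2 fold change -0.51, SE 0.12, adjusted p = 0.0420). Each of the calls held in 5 of 15 alternatives. *Nfe2l2*, which encodes NRF2, had a log2 fold change of -0.29 (adjusted p = 0.166). *Vcp*, which encodes the ATPase that draws NRF1 out of the endoplasmic reticulum, was at 134, 135 and 136 FPKM in WT and at 118, 106 and 114 FPKM in TRIM24 C52/55A (log2 fold change -0.26, adjusted p = 0.0693).

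Interferon-responsive genes were examined because *Psmb8* and *Psmb9* belong to them, and they moved in both directions. Of 19 such genes outside the proteasome, 3 fell (15.8%, against 6.09% of all genes tested) and 1 rose, with a median log2 fold change of -0.22 (-0.08 for all genes). The genes that fell were *Gbp2* (log2 fold change -0.73, adjusted p = 0.0242), *Isg15* (-0.66, adjusted p = 0.0189) and *Igtp* (-0.67, adjusted p = 0.0427). *Iigp1* rose from 92.8, 88.4 and 89.5 to 128, 115 and 131 FPKM (log2 fold change 0.46, adjusted p = 0.0132). Of 15 alternatives, an adjusted p under 0.05 held in 7 for *Gbp2*, 9 for *Isg15*, 6 for *Igtp* and 10 for *Iigp1*. Among 8 genes of MHC class I peptide loading, *Tap1*, the neighbour of *Psmb9*, fell (12.5% of the 8, against 6.09% of all genes tested). *Tap1* went from 14.2, 9.61 and 11.8 to 5.87, 7.89 and 7.56 FPKM (log2 fold change -0.66, adjusted p = 0.0371, under 0.05 in 6 of 15 alternatives). *Tapbp* had a log2 fold change of -0.48 (adjusted p = 0.0951) and *Tap2* one of -0.34 (adjusted p = 0.181). Of the 8 genes, 5 were lower by sign (62.5%, against 65.5% of all genes tested) and 3 higher. *Calr* and *Pdia3*, which encode chaperones of the loading complex, had log2 fold changes of 0.18 and 0.22 (adjusted p = 0.246 and 0.263), and the groups of *Calr* did not overlap.

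Markers of immune cells, which carry much immunoproteasome, were measured beside these genes. All 8 macrophage markers were lower by sign (log2 fold changes -0.38 to -0.10), as were 65.5% of all genes tested. In limma 0 of the 8 passed and 2 had an unadjusted p under 0.05, as had 2883 of all 12225 genes tested in either direction. The summed FPKM of the 8 was 189 to 239.6 in WT and 159.8 to 220.1 in TRIM24 C52/55A. Of 12 leukocyte markers, 5 were expressed enough to be tested, 4 of these were lower by sign, and the sum was 9.47 to 16.1 FPKM in WT and 8.02 to 13.2 FPKM in TRIM24 C52/55A. *Ptprc*, the general leukocyte marker, was at 1.63, 2.38 and 2.08 FPKM in WT and at 1.69, 1.82 and 1.87 FPKM in TRIM24 C52/55A. *Cd4* rose (log2 fold change 1.11, adjusted p = 0.00108), from 0.349 to 0.408 FPKM in WT to 1.87 to 2.12 FPKM. *Cd3d*, *Cd3e* and *Cd8a*, which also mark T cells, were under the filter on low values. Their means went from 0.192 to 0.376, from 0.596 to 0.238 and from 0.128 to 0.151 FPKM, and their groups overlapped. *S100a8* had a log2 fold change of -0.71 (adjusted p = 0.111). The part of immune cells in the values of *Psmb8* and *Psmb9* was not tested. Without TRIM24 C52/55A replicate 2, the library with the adipocyte genes, the log2 fold changes of *Psmb8* and *Psmb9* were -0.92 and -0.60 (adjusted p = 0.00438 and 0.0478). Without that library the macrophage markers *Csf1r* (-0.49, adjusted p = 0.024) and *Cd68* (-0.39, adjusted p = 0.0414) also fell, so 2 of the 8 markers passed there, and so did *Tapbp* (adjusted p = 0.00941) and *Tap2* (adjusted p = 0.0267). The stellate marker *Col1a1* fell there as well (-0.93, adjusted p = 0.00854). Of all genes tested, 8.52% fell without that library, against 6.09% with all libraries.

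The 250 bases before the start of these genes were searched on both strands for motifs of the factors above, in RefSeq sequence of GRCm38.p6, in which 36 of the 43 members had a window. An antioxidant response element core, bound by NRF1 and NRF2 with small MAF proteins, was searched as TGACNNNGC or TGAGNNNGC. It was in 10 of 27 windows of core and regulatory particle genes (37%), against 23% of 32851 windows of all genes, and in 0 of 6 windows of the 5 immunoproteasome genes. *Psmb5* and *Psmb6* are shown because they encode constitutive partners of the inducible subunits and hold this motif close to their start. *Psmb7*, the partner of *Psmb10*, had no window and was not searched, nor was *Psmd7*. The capitals mark the match, which begins 47 bases (*Psmb5*) and 9 bases (*Psmb6*) before the RefSeq start, and each sequence runs 5′ to 3′ on the strand of the gene, minus for *Psmb5* and plus for *Psmb6*.
Psmb5, chr14:54618023-54618172: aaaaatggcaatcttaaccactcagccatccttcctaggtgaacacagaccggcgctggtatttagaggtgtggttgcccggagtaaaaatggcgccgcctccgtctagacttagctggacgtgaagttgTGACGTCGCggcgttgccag
Psmb6, chr11:70525207-70525356: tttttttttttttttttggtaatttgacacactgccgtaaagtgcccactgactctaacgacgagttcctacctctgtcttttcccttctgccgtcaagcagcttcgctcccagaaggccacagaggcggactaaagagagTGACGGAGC

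Motifs of interferon-activated factors were rare in the same windows. The gamma-activated site was searched as TTCNNNGAA and the interferon-stimulated response element as a pair of GAAA runs with 2 free bases between them. The first was in 0 of 27 windows of core and regulatory particle genes and in 7.02% of all windows, and among the immunoproteasome genes it was in the window of *Psmb8* alone. The second was in 2 of 27 windows (*Psmb3* and *Psmd4*), in 2.98% of all windows and in none of the 6 immunoproteasome windows. The stretch of *Psmb8* (plus strand) and that of *Psmd4* (minus strand, the match reading as the motif on the opposite strand) are shown because both genes fell, with the match in capitals, beginning 97 and 80 bases before the RefSeq start. The stretch of *Psmb8* lies in an exon of the longer GENCODE transcript. The CCAAT box, bound by NF-Y, was in 10 of 27 windows of core and regulatory particle genes (37%) and in 33.8% of all windows. A match is a run of letters and does not show that a factor binds there.
Psmb8, chr17:34198088-34198116: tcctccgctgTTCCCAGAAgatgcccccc
Psmd4, chr3:95042615-95042764: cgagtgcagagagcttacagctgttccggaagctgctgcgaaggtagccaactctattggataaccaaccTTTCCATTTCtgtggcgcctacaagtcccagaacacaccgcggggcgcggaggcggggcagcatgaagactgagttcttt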

How the data were processed

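Liver RNA of WT and TRIM24 C52/55A mice (3 libraries each) was sequenced, and FPKM values were deposited by the authors, in a table for each library with gene names and intervals. The submitters' processing notes name GRCm38, bcl2fastq, Salmon 0.14.0 and DESeq2 1.30.0 without their roles, and the tool, annotation and strand setting behind the FPKM are not given in the sources used here. FPKM keep no counts, so no counting interval was made.

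Proteasome genes were chosen by name, and 21454 of 21528 identifiers were found in GENCODE M21. Genes averaging 0.5 FPKM or more were tested as log2(FPKM + 1), two-sided, with limma 3.58.1 in R 4.3.3 (lmFit, eBayes with a mean-variance trend, Benjamini-Hochberg adjustment over 12225 genes). Fold changes on this scale understate those of low genes. The labels number the samples as replicates, and p-values measure the spread between these samples. Ratios were compared by exact permutation tests in scipy 1.17.1, and figures drawn with matplotlib 3.10.9. The procedure was tested on simulated data. The members and gene lists were chosen with earlier results of these data known. Named were each member that passed, the immunoproteasome genes and their constitutive partners, the extremes of each class, members under the filter, and up to 5 genes per other list with the smallest adjusted p-values. Lists of endothelial (1 of 5 fell, *Lyve1*), stellate (0 of 4 passed) and hepatocyte (*Cps1* rose, *Asgr1* fell) markers were also measured, with these calls from all libraries. Pseudocounts, filters, scalings, variance models, a replicate block and each replicate left out were tried as alternatives. Some genes of the lists are not reported here.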

Additional observations from a re-analysis of the deposited data

How the results depend on the processing

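The number of proteasome genes that fell, 5 with FPKM as deposited, depended on the processing, and it stayed at 5 with a pseudocount of 0.1 or a filter of 1 FPKM. It was 1 without a filter on low values, 18 with TPM scaling, 1 with median-of-ratios scaling, 1 with quantile normalization, 2 without the mean-variance trend and 0 in an unmoderated linear model (32 at an unadjusted p under 0.05). Leaving out 1 library gave 1 to 12, the 12 without TRIM24 C52/55A replicate 2, where 8.52% of all genes tested fell. *Psmb8* was the gene called wherever 1 was. With a replicate block the count was 1, and the deviations of same-numbered livers correlated at -0.12, -0.10 and 0, so the numbers were not taken as pairs. The core median moved to -0.26 (TPM), -0.10 (median of ratios) and -0.04 (quantile), the regulatory particle median to -0.31, -0.15 and -0.10, and the immunoproteasome median to 0.01 (quantile). Over all genes, FPKM as deposited gave 200 rises and 744 falls, TPM gave 193 and 1295, the median of ratios 250 and 405, and quantile normalization 253 and 375. The 3 ratios of inducible to constitutive genes kept their direction in each alternative run. The depth of 15700000 to 17000000 fragments is implied by the steps of low values, and 3 livers a group limit the exact tests.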
